A study of Mus musculus with 59 samples.

Results

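The cyclin-dependent kinase inhibitor genes are *Cdkn1a*, *Cdkn1b*, *Cdkn1c*, *Cdkn2a*, *Cdkn2b*, *Cdkn2c* and *Cdkn2d*, 7 of the 24391 genes in the deposited expression tables. They were taken by their symbols, without regard to their values, and each was found in all 59 libraries. The libraries were poly(A) RNA-seq from 6 conditional mouse embryonic stem cell (ESC) lines, derived from blastocysts in the case of the *Pcgf1* line, which were made to study how forms of Polycomb repressive complex 1 (PRC1) act when ESCs begin to differentiate. ESCs were grown on mouse embryonic fibroblast feeders with LIF and 3 inhibitors (SU5402, PD184352 and CHIR99021), and embryoid bodies (EBs) were formed over 2 days in suspension without these factors. All lines carry ERT2-Cre, a Cre recombinase expressed from the *Rosa26* locus that becomes active when 4-hydroxytamoxifen (4-OHT) is added. Controls are the same cells without 4-OHT. No group received 4-OHT with its targeted alleles intact. Effects of 4-OHT or active Cre therefore cannot be told apart from those of the mutations. The paper deleted *Pcgf1* before EB formation began, so time since deletion may differ between mutant ESCs and mutant EBs. Time since deletion then cannot be told apart from stage.

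In the *Pcgf1* line, controls are ERT2-Cre;Pcgf1f/f (4 ESC and 5 EB libraries) and Pcgf1-KO cells are ERT2-Cre;Pcgf1delta/delta (5 ESC and 5 EB libraries). In the point mutant line, controls are ERT2-Cre;Ring1apm/pm;Ring1b and mutants are ERT2-Cre;Ring1apm/pm;Ring1bpm/pm, so that the controls already carry the *Ring1a* point mutation, with 2 libraries in each of the 4 groups. The other 4 lines also have 2 libraries in each of 4 groups. Their controls are ERT2-Cre;Ring1a-/-;Ring1bf/f (called Ring1A/B, and lacking *Ring1a* already), ERT2-Cre;Pcgf2f/f;Pcgf4f/f, ERT2-Cre;Pcgf3f/f;Pcgf5f/f and ERT2-Cre;Pcgf6f/f, and their mutants have the floxed alleles changed to delta. Each genotype is a single line, and the labels do not say whether replicates were separate cultures, so p-values measure only the spread between these libraries, which may be technical.

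Cyclin-dependent kinases drive the cell cycle when bound to cyclins, and the 7 genes encode proteins that hold them back. The CIP/KIP members p21 (*Cdkn1a*), p27 (*Cdkn1b*) and p57 (*Cdkn1c*) bind cyclin-kinase complexes of several kinds, whereas the INK4 members p16Ink4a (*Cdkn2a*), p15 (*Cdkn2b*), p18 (*Cdkn2c*) and p19Ink4d (*Cdkn2d*) bind the kinases CDK4 and CDK6. *Cdkn2a* also encodes p19Arf, a stabilizer of p53, and the *Cdkn2a*-*Cdkn2b* locus is a textbook target of Polycomb repression in fibroblasts and stem cells, where PRC1 ubiquitinates histone H2A and PCGF1 is the subunit that defines a variant of the complex.

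*Cdkn2a* and *Cdkn2b* lie side by side on the minus strand of chromosome 4, at chr4:88920377-88940557 and chr4:88952198-88956941 in mm9, with 11640 bases between them. *Cdkn2a* has separate start sites for p19Arf and p16Ink4a that share downstream exons, and a value per gene does not separate them. The 250 bases before each start in RefSeq (GRCm38.p6) are shown for this locus because variant PRC1 is recruited to DNA rich in unmethylated CpG. Capitals mark each CG, a motif that reads the same on both strands. The p19Arf window (chr4:89294620-89294869, minus strand) holds 40, a number that 1.31% of the 32851 RefSeq promoters of this length reach. The p16Ink4a window (chr4:89282193-89282442, minus strand) holds 7, a number that 46.3% of promoters reach, and the *Cdkn2b* window (chr4:89311033-89311282, minus strand) holds 12, reached by 33.5%.
*Cdkn2a*, p19Arf start: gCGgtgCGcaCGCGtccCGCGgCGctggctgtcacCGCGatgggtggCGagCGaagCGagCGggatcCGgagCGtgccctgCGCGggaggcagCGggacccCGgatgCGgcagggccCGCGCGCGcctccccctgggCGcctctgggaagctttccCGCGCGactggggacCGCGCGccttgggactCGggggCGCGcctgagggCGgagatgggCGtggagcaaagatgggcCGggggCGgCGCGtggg
*Cdkn2a*, p16Ink4a start: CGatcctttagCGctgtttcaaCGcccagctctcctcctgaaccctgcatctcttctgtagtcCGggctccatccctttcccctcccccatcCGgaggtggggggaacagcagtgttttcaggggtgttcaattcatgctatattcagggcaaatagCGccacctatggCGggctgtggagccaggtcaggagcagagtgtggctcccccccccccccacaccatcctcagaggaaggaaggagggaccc
*Cdkn2b* start: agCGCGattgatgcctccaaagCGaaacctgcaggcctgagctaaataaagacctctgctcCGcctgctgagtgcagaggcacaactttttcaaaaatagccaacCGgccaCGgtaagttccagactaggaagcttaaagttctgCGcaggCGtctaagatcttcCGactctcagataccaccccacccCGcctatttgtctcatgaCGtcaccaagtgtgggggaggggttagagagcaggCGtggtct

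The values are TPM, shares of all transcripts that are scaled for transcript length, so that levels of different genes can be set side by side. Each library sums to 1000000 and the number of reads behind it is unknown. Between 6039 and 9139 genes were listed at 0 in a library, but none of the 7 inhibitor genes was listed at 0 in any library, and all 7 entered every test. As a check of the labels, *Pcgf1* transcripts themselves lay between 10.7 and 13.6 TPM in the control ESCs of that line, and between 0.6 and 2.8 after deletion. In its EBs the ranges were 7.3 to 16.6 and 1.0 to 2.5. The naive pluripotency gene *Klf4* was at 655 to 1664 TPM in its ESCs and 3.5 to 74.6 in its EBs, whereas *Fgf5*, a gene of the early epiblast, was at 0.0 to 0.4 in ESCs and 8.5 to 68.5 in EBs. A point mutation does not have to change the level of its own gene, so the point mutant labels were not checked in this way. Table names and labels give the same condition for all 27 libraries of these 2 lines, but different ones for 21 of the 32 libraries of the other 4 lines, which are therefore described library by library at the end.

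During EB formation in control cells of the *Pcgf1* line, *Cdkn1c* and *Cdkn2b* rose, *Cdkn1a*, *Cdkn2c* and *Cdkn2d* fell, and *Cdkn1b* and *Cdkn2a* did not pass the test. These 5 of 7 genes had an adjusted p below 0.05 (limma on log2(TPM + 0.1), adjusted over all genes tested), against 24.9% of all 20594 genes tested in the line. Of the genes, 13400 had a mean of at least 1 TPM, as did all 7 members. Shares of all genes, here and below, include the lower genes and are not matched for level. Bulk RNA cannot tell fewer cells expressing a gene from less RNA per cell. ESCs were grown on feeders, whose part in these stage differences was not tested. Non-overlap of groups and agreement of pairs are descriptions here, and their shares over all genes were not counted.

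*Cdkn1a*, a p53 target that also arrests cells independently of p53, was at 132, 119, 123 and 120 TPM in the 4 control ESC libraries and at 35.8, 59.2, 61.3, 31.6 and 34.5 in the 5 control EB libraries. Every EB library lay below every ESC library, and replicates 2 and 3 were the highest EBs. The log2 fold change was -1.53 ± 0.22 (SE, adjusted p = 5.23e-05). *Cdkn1c*, an imprinted gene expressed from the maternal allele, showed the opposite direction, at 4.61, 11.6, 10.8 and 5.31 TPM in ESCs and 27.01, 46.0, 61.3, 25.5 and 29.002 in EBs. Again the groups did not overlap, and in the 4 pairs of libraries with the same number the EB value was 3.97 to 5.87 times the ESC value (log2 fold change 2.24 ± 0.38, adjusted p = 0.000242). *Cdkn1b* ranged from 39.6 to 78.8 TPM in control ESCs and from 36.7 to 53.3 in control EBs, with overlapping groups (log2 fold change -0.26 ± 0.27, adjusted p = 0.533).

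Among the INK4 genes, *Cdkn2b* was at 4.82, 3.35, 1.22 and 5.36 TPM in control ESCs and at 5.9998, 6.24, 10.2, 8.71 and 11.5 in control EBs, with all EB values above all ESC values (log2 fold change 1.33 ± 0.32, adjusted p = 0.00497). Its neighbour *Cdkn2a* overlapped between the stages, at 24.2, 19.4, 15.99 and 31.6 TPM in ESCs and 17.8, 14.3, 12.98, 26.4 and 29.6 in EBs. Its log2 fold change was -0.20 ± 0.31 (adjusted p = 0.690), but the libraries with the same number varied together, all 4 pairs were lower in EBs (0.734 to 0.834 times), and the fall passed the test once the replicate number entered the fit as a block (-0.32 ± 0.11, adjusted p = 0.0280). That brought the blocked count to 6 of 7, against 43.9% of all genes. *Cdkn2c* was low throughout, between 2.38 and 5.04 TPM in control ESCs and between 0.256 and 1.55 in control EBs (log2 fold change -1.80 ± 0.45, adjusted p = 0.00603). *Cdkn2d* was at 15.4 to 19.1 TPM in ESCs and 8.22 to 14.2 in EBs (-0.66 ± 0.20, adjusted p = 0.0188), a call lost under median-of-ratios scaling and quantile normalization and without either control EB replicate 2 or control ESC replicate 4 (adjusted p up to 0.119). *Cdkn2d* values are uncertain in all lines, because 403 and 872 of the 1271 bases of its transcript match, at 100% and 99.885% identity, a second stretch of chromosome 9, and the authors' treatment of reads with several matches is not described.

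**Figure D1:**
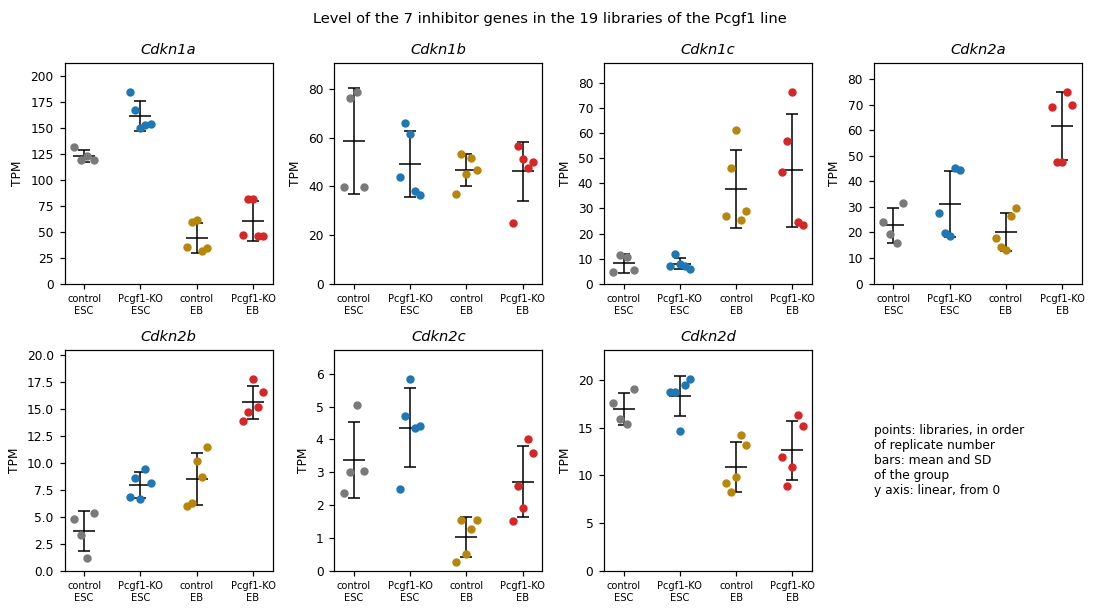
Level of each inhibitor gene in the 19 libraries of the *Pcgf1* line, in TPM on linear axes from 0, with 1 point per library in order of replicate number and bars at the group mean and SD. *Cdkn1a* lies lower and *Cdkn1c* higher in EBs than in ESCs, and *Cdkn2a* stands apart in Pcgf1-KO EBs, at 47.4 to 75.0 TPM.

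Pcgf1-KO cells also changed 5 of the 7 genes between ESC and EB, against 18.3% of all genes, with *Cdkn2a* in and *Cdkn2c* out of the list. *Cdkn1a* fell (log2 fold change -1.48 ± 0.21, adjusted p = 5.45e-05), *Cdkn1c* rose (2.39 ± 0.35, adjusted p = 9.24e-05), and *Cdkn2b* and *Cdkn2d* passed more narrowly, with 0.97 ± 0.30 (adjusted p = 0.0307) and -0.56 ± 0.19 (adjusted p = 0.0429). *Cdkn2a* rose here, from 27.6, 19.9, 18.8, 45.4 and 44.4 TPM in Pcgf1-KO ESCs to 68.9, 47.4, 47.4, 75.0 and 69.9 in Pcgf1-KO EBs. The lowest EB value exceeded the highest ESC value, and the 5 pairs rose 1.57 to 2.52 times (log2 fold change 1.05 ± 0.29, adjusted p = 0.0154). *Cdkn2c* did not pass, at 2.48 to 5.84 TPM in ESCs and 1.52 to 4.01 in EBs (-0.70 ± 0.42, adjusted p = 0.302). The replicate block left the count at 5, against 36.8% of all genes. The *Cdkn2b* call was lost without mutant ESC replicate 1, 3 or 5 or mutant EB replicate 2, 3 or 5 (adjusted p up to 0.0685). The *Cdkn2d* call was lost under both other scalings, in a fit of these groups alone, and without mutant ESC replicate 1, 2, 4 or 5 or mutant EB replicate 1, 2 or 3 (adjusted p up to 0.213).

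Between Pcgf1-KO and control EBs, *Cdkn2a* was the gene that rose. It was at 17.8, 14.3, 12.98, 26.4 and 29.6 TPM in control EBs and 68.9, 47.4, 47.4, 75.0 and 69.9 in Pcgf1-KO EBs, with no overlap. The means were 20.2 and 61.7 TPM, and the same-numbered libraries differed 2.36 to 3.88 times, all 5 in the same direction. The log2 fold change was 1.65 ± 0.29 (adjusted p = 0.00538), and the adjusted p stayed between 7.70e-07 and 0.036 over all other settings and between 0.00485 and 0.0224 with each library left out. *Cdkn2a* was the 1 of 7 genes called, against 1.95% of all genes. The 3 series of libraries, defined by the form of their table headers, gave mean differences of 1.95 (replicate 1), 1.79 (replicates 2 and 3) and 1.37 (replicates 4 and 5) on the log2 scale.

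The other INK4 genes were also higher in Pcgf1-KO EBs in every pair, but limma called none of them without the block. *Cdkn1a* was likewise higher in every pair. *Cdkn2b* was at 13.9, 14.7, 17.8, 15.2 and 16.5 TPM in Pcgf1-KO EBs, above the highest control EB (11.5), but did not pass the test (log2 fold change 0.91 ± 0.30, adjusted p = 0.161, and 0.0626 with the block). *Cdkn2c* was at 0.256, 1.54, 0.503, 1.27 and 1.55 TPM in control EBs and at 1.52, 2.57, 1.90, 4.01 and 3.596 in Pcgf1-KO EBs. The pairs differed 1.66 to 5.93 times, and the log2 fold change of 1.47 ± 0.42 had an adjusted p of 0.0870, which became 0.00903 with the block. With the block 2 of 7 genes were called, against 10.4% of all genes. *Cdkn2d* pairs differed 1.09 to 1.30 times (0.21 ± 0.19, adjusted p = 0.781). Summed over the 4 INK4 genes, the level was 30.3 to 55.8 TPM in control EBs and 73.6 to 111 in Pcgf1-KO EBs. By means, the sums were 40.7 and 92.7 TPM, and *Cdkn2a* alone was at 20.2 and 61.7.

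Of the CIP/KIP genes, *Cdkn1a* was higher in Pcgf1-KO EBs in all 5 pairs, by 1.31 to 1.45 times, at 46.9, 81.9, 81.3, 45.8 and 45.6 TPM. The spread between replicate numbers was larger than this difference, and neither fit called it (0.44 ± 0.21, adjusted p = 0.410, and 0.0996 with the block). *Cdkn1b* and *Cdkn1c* were higher in 3 of 5 pairs each, with log2 fold changes of -0.06 and 0.20. Over the 7 genes the median log2 fold change was 0.44, and over all genes it was -0.03.

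In ESCs, none of the 7 genes was called between Pcgf1-KO and control by limma, with 1 at an unadjusted p below 0.05, and 0.641% of all genes were called. That gene was *Cdkn2b*, at 6.81, 8.63, 6.69, 9.44 and 8.14 TPM in Pcgf1-KO ESCs, all above the control values of 1.22 to 5.36. Its log2 fold change of 1.26 ± 0.32 had an adjusted p of 0.0915, and it was called with the block (1.21 ± 0.32, adjusted p = 0.0383, 1 of 7 genes against 5.31% of all genes) and without control ESC replicate 4 (adjusted p = 0.0372). *Cdkn1a* was at 185, 168, 150, 153 and 154 TPM, also with no overlap with control ESCs, but with a log2 fold change of 0.39 ± 0.22 (adjusted p = 0.698). *Cdkn2a* was higher in all 4 pairs by only 1.03 to 1.43 times (0.40 ± 0.31, adjusted p = 0.838).

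Whether the KO effect differed between EB and ESC was tested as an interaction. Time since deletion may also differ between these stages and cannot be told apart from them. For *Cdkn2a* the effect was larger in EBs by 1.26 ± 0.42 on the log2 scale, which limma did not call (adjusted p = 0.596), and none of the 7 genes was called, with 1 at an unadjusted p below 0.05 and 0.00486% of all genes called. With the replicate block the *Cdkn2a* difference was 1.38 ± 0.15 (adjusted p = 0.00103), 1 of 7 genes against 1.62% of all genes. The *Cdkn2c* difference with the block was 1.21 ± 0.47 (adjusted p = 0.225).

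**Figure D2:**
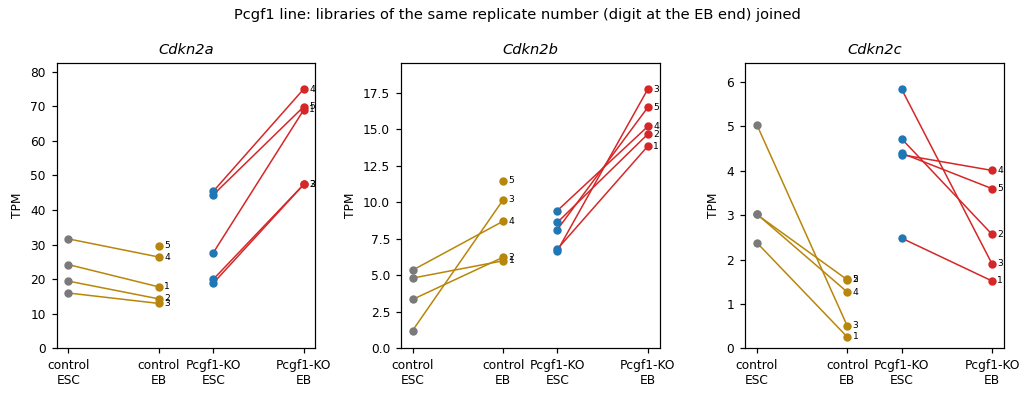
Levels of *Cdkn2a*, *Cdkn2b* and *Cdkn2c* in the *Pcgf1* line (TPM, linear axes from 0), with lines joining the ESC and EB libraries of a genotype that share a replicate number, which is printed at the EB end. For *Cdkn2a* the 4 control pairs descend from ESC to EB (0.734 to 0.834 times) and the 5 Pcgf1-KO pairs ascend (1.57 to 2.52 times).

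Feeder fibroblasts express *Cdkn2a* and *Cdkn2b* in culture, so fibroblast markers were set beside these values. The summed level of 8 markers was 194 to 283 TPM in control ESCs, 148 to 225 in Pcgf1-KO ESCs, 24.3 to 45.5 in control EBs and 7.64 to 13.9 in Pcgf1-KO EBs. Pcgf1-KO EBs, the group with the highest *Cdkn2a*, had the lowest sum, but the sums of the EB groups differed mainly through *Thy1* (means of 3.13 and 20.8 TPM in Pcgf1-KO and control EBs). *Col1a1* differed little, at 3.49 to 6.48 TPM in Pcgf1-KO EBs and 3.74 to 9.25 in control EBs, and *Lum* was listed at 0 in all 5 Pcgf1-KO EB libraries. From control ESC to control EB, 5 of the 8 markers fell and 2 rose (*Dcn* and *Thy1*), where 24.9% of all genes were called. Between Pcgf1-KO and control EBs 1 fell (*Thy1*, by 2.69 on the log2 scale), where 1.95% of all genes were called. Of 6 primitive endoderm markers *Gata4* (1.40) and *Gata6* (2.6 on the log2 scale) rose in Pcgf1-KO EBs (sum 8.38 to 22.7 TPM, against 6.83 to 18.7 in control EBs), as did *Tfcp2l1*, 1 of 6 naive pluripotency markers (1.52, adjusted p = 0.0237), and *Eomes*, 1 of 4 mesoderm markers (1.70, adjusted p = 0.00831). None of 4 early epiblast, 3 general pluripotency, 5 trophoblast and 4 neural markers was called by limma there. In ESCs 1 of these markers was called, *Otx2*, which was lower in Pcgf1-KO (-2.18, adjusted p = 0.00522), where 0.641% of all genes were called. The part of any of these markers' cells in the *Cdkn2a* difference was not tested. Nor was the part of feeders in the falls of *Cdkn1a*, *Cdkn2c* and *Cdkn2d* during control EB formation.

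The genes flanking the locus, *Mtap* (methylthioadenosine phosphorylase) and *Dmrta1*, did not pass the test between Pcgf1-KO and control EBs, with log2 fold changes of -0.14 and -0.74. Both had risen during control EB formation, by 0.57 and 2.00 on the log2 scale.

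In the point mutant line, *Cdkn1c* was the gene that differed most in both stages. It was 14.2 and 12.01 TPM in control ESCs, 65.5 and 83.6 in mutant ESCs, 63.7 and 62.6 in control EBs and 155 and 194 in mutant EBs. Both mutant ESC libraries lay above both control EB libraries, and no groups overlapped. Mutant ESCs exceeded control ESCs by 2.49 ± 0.18 on the log2 scale (adjusted p = 0.00714), 1 of 7 genes against 2.54% of all genes. Mutant EBs exceeded control EBs by 1.45 ± 0.18 (adjusted p = 0.0121). The median over all genes was itself 0.12 in mutant ESCs and 0.10 in mutant EBs, small beside these values. With 2 libraries per group the calls are fragile. The ESC call was lost without control ESC replicate 2 and when only these groups were fitted, and the EB call was lost with any 1 of the 4 libraries left out (adjusted p 0.064 to 0.0888).

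*Cdkn2d*, whose reads may be shared with its copy, was the other of the 2 genes called between mutant and control EBs, against 4.53% of all genes. It was 14.8 and 18.2 TPM in control EBs and 31.5 and 28.7 in mutant EBs (log2 fold change 0.87 ± 0.16, adjusted p = 0.0336), and the call was lost under median-of-ratios scaling, quantile normalization, a fit of these groups alone and each left-out library.

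*Cdkn2a* was at 28.6 and 15.7 TPM in control ESCs and 58.1 and 65.2 in mutant ESCs. It was at 39.4 and 21.6 in control EBs and 77.1 and 74.6 in mutant EBs. Both mutant groups lay above both control groups, but the control replicates differed widely from each other, and neither comparison passed (1.53 ± 0.34, adjusted p = 0.0654 in ESCs, and 1.37 ± 0.34, adjusted p = 0.0669 in EBs). Both passed when only genes with a mean of at least 1 TPM were tested. *Cdkn2b* ranged from 2.70 to 4.99 TPM in control ESCs and 7.58 to 8.94 in mutant ESCs (1.14 ± 0.47, adjusted p = 0.279), and its EB groups overlapped (0.41 ± 0.47, adjusted p = 0.678). *Cdkn2c* was at 0.662 and 1.32 TPM in control ESCs and 1.93 and 1.89 in mutant ESCs, and at 1.35 and 1.07 in control EBs and 2.79 and 2.56 in mutant EBs (adjusted p = 0.316 and 0.197). These groups also did not overlap, nor did the *Cdkn2d* ESC groups, which limma did not call either (adjusted p = 0.323). With 2 libraries per group, groups thus separated without a call. Summed, the INK4 genes reached 39.1 to 52.9 TPM in control ESCs, 94.1 to 98.9 in mutant ESCs, 45.2 to 66.8 in control EBs and 114 to 122 in mutant EBs. The means of *Cdkn2a* alone were 22.1, 61.7, 30.5 and 75.9 TPM in the same order.

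The 2 remaining CIP/KIP genes moved less. *Cdkn1a* was at 71.0 and 107 TPM in control ESCs, 98.2 and 150 in mutant ESCs, 35.2 and 52.9 in control EBs and 63.5 and 77.9 in mutant EBs. Replicate 2 was the higher in each of the 4 groups, and the mutant differences were 0.48 ± 0.30 in ESCs (adjusted p = 0.499) and 0.70 ± 0.30 in EBs (adjusted p = 0.236). *Cdkn1b* was the only member with lower means in the mutants of both stages, at 24.8 and 33.5 TPM in mutant ESCs against 30.4 and 44.0, and 34.7 and 52.1 in mutant EBs against 46.8 and 93.8, with overlapping groups (adjusted p = 0.384 in EBs). The median over the 7 genes was 0.95 in ESCs and 0.87 in EBs.

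Between the stages, *Cdkn1c* was the 1 of 7 genes called in control cells (2.26 ± 0.18, adjusted p = 0.00179), against 4.73% of all genes. In mutants none was called by limma (2 at an unadjusted p below 0.05), against 0.133% of all genes. There *Cdkn1c* was at 1.23 ± 0.18 (adjusted p = 0.0797). The interaction called none of the 7 (1 at an unadjusted p below 0.05, with *Cdkn1c* at -1.04 ± 0.25 and adjusted p = 0.451), against 0.00986% of all genes.

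**Figure D3:**
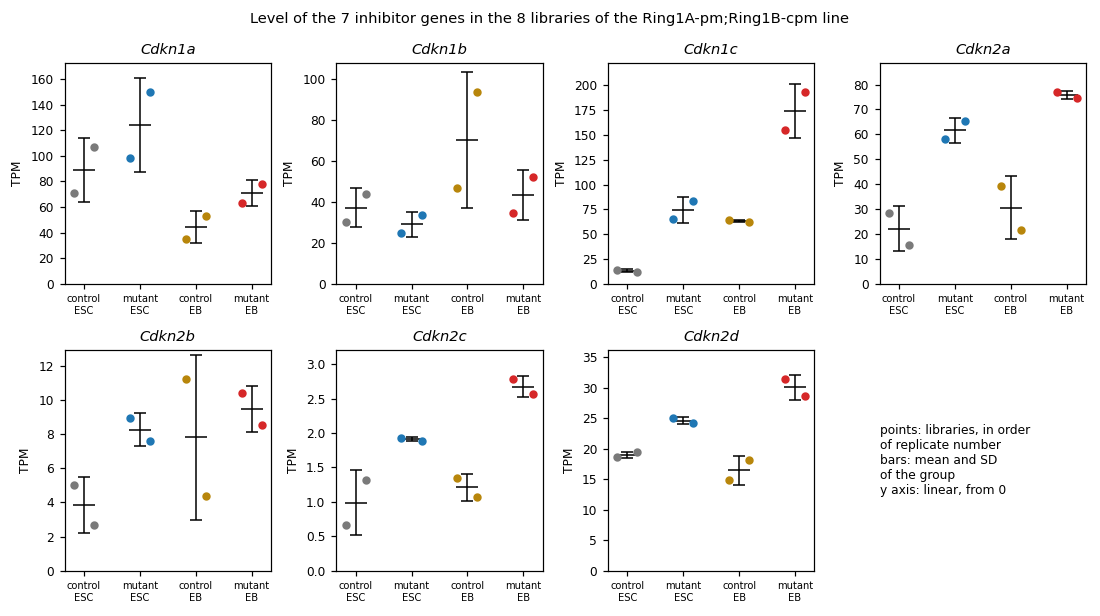
Level of each inhibitor gene in the 8 libraries of the point mutant line, in TPM on linear axes from 0, with 1 point per library and bars at the group mean and SD. *Cdkn1c* climbs from 12.01 to 14.2 TPM in control ESCs to 155 to 194 in mutant EBs.

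Markers of other cell types and of the stage differed in the point mutants too. The primitive endoderm sum was 4.96 to 6.18 TPM in control ESCs, 23.7 to 25.2 in mutant ESCs, 13.6 to 18.4 in control EBs and 30.6 to 33.6 in mutant EBs, and the sum of 5 trophoblast markers was 1.55 to 4.34, 8.31 to 10.4, 2.24 to 2.31 and 11.1 to 11.6 in the same order. Of these lists, *Gata4* and *Gata6* and the trophoblast marker *Hand1* rose in mutant ESCs, and *Gata6*, *Gata3* and *Hand1* in mutant EBs. For these and the marker calls below, 2.54% of all genes were called in mutant ESCs and 4.53% in mutant EBs. Fibroblast markers summed to 37.6 to 42.8 TPM in control ESCs, 64.5 to 68.2 in mutant ESCs, 30.1 to 33.8 in control EBs and 72.4 to 72.8 in mutant EBs, with *Thy1* the largest part, *Col1a1*, *Col1a2* and *Thy1* higher in mutant EBs, and *Lum* at or near 0 (at most 0.07). *Cdkn1c* is expressed in trophoblast and endoderm, and the part of such cells in its difference was not tested. In mutant EBs 3 of 4 early epiblast markers were lower, *Fgf5* (-3.36), *Otx2* (-2.04) and *Pou3f1* (-1.89), and 2 of 6 naive markers were higher, *Klf4* (1.19) and *Nanog* (1.16). The mesoderm markers *T* (2.88) and *Mesp1* (2.69) and the neural marker *Neurog1* (2.64) were also higher there. In mutant ESCs the naive marker *Klf2* was lower (-0.93), *Mesp1* was higher (2.14), and *Neurog1* was called higher, with a mean of 1.20 TPM against a listing at 0 in both control ESC libraries. Their part in the *Cdkn1c* and *Cdkn2d* differences was not tested either.

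A joint fit of the 27 libraries tested whether the 2 lines differed. None of the 7 genes was called in the mutant ESC effect, the mutant EB effect or the control EB change, against 0.968%, 2.14% and 3.48% of all genes. The nearest was *Cdkn1c*, whose mutant ESC effect was larger in the point mutant line by 2.45 ± 0.61 on the log2 scale (adjusted p = 0.0555). For *Cdkn2a* the lines differed by 1.14 ± 0.54 in ESCs (adjusted p = 0.477) and by -0.28 ± 0.54 in EBs (adjusted p = 0.993). The lines are separate derivations, and line and genotype cannot be told apart.

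**Figure D4:**
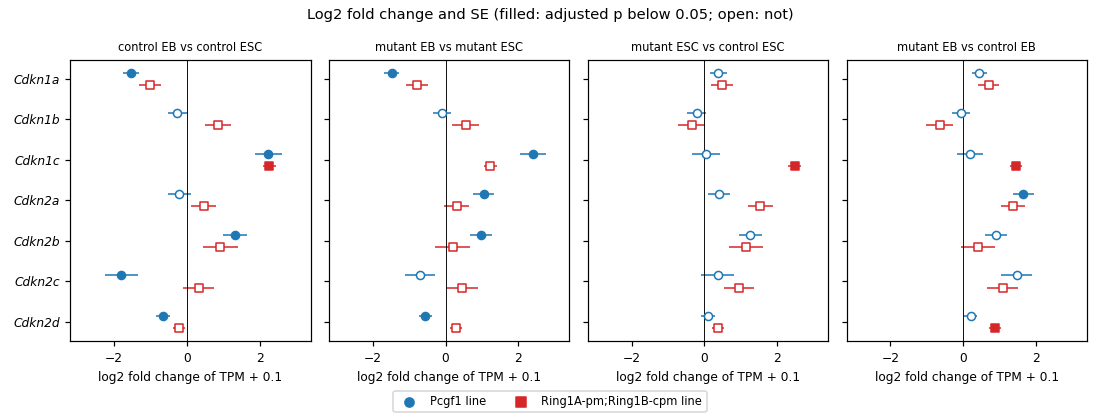
Log2 fold change of each inhibitor gene with its standard error, for the 2 stage and 2 mutant comparisons of the *Pcgf1* line (circles) and the point mutant line (squares), with filled symbols for an adjusted p below 0.05. *Cdkn2a* stands at 1.65 in Pcgf1-KO EBs and *Cdkn1c* at 2.49 in point mutant ESCs.

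Partner genes were counted from lists. Of 11 cyclins and kinases, 3 rose and 2 fell during control EB formation in the *Pcgf1* line (45.5%, against 24.9% of all genes). *Ccne1*, the cyclin that activates CDK2, rose from 102 to 226 TPM (log2 fold change 1.13 ± 0.12, adjusted p = 2.86e-06), *Ccnd2* rose from 5.23 to 12.4, and *Ccnd3* fell from 202 to 82.1, with smaller changes of *Cdk4* (0.76) and *Cdk2* (-0.53 on the log2 scale). The D-type cyclins activate the kinases that INK4 proteins bind. Of 8 pocket proteins and E2F factors, which act downstream of the kinases, 3 fell and none rose (*Rbl2*, *Rbl1* and *E2f1*, 37.5%). Among 8 subunits of the ubiquitin ligases that degrade p21, p27 and p57, *Cul1* and *Cks1b* rose and *Dtl* fell (37.5%). In the point mutant line *Ccnd2* rose (2.28) and *Ccnd3* fell (-1.12) between control ESCs and control EBs, and *E2f2* fell (-0.96), which is 18.2% of the cyclins and kinases and 12.5% of the pocket proteins and E2Fs, against 4.73% of all genes.

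Between Pcgf1-KO and control cells these lists moved little. In ESCs 1 of 11 cyclins and kinases was called, *Ccne1*, at 155 ± 11.1 TPM (SD, n = 5) against 102 ± 8.1 (SD, n = 4), with a log2 fold change of 0.60 ± 0.12 (adjusted p = 0.0319), which is 9.09% of the list against 0.641% of all genes. In EBs none of the 11 was called by limma, against 1.95% of all genes, and the list's median was -0.01. The pocket proteins and ligases gave no calls in either stage. In the point mutants 1 gene of these 3 lists was called, *Ccnd3*, which was lower in mutant ESCs (140 against 225 TPM, adjusted p = 0.0329), 9.09% of its list against 2.54% of all genes.

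Of p53 and its 2 regulators, *Mdm2* and *Mdm4* fell during control EB formation (-0.63 and -1.10), 66.7% of the list against 24.9% of all genes. Between Pcgf1-KO ESCs and EBs *Mdm2* fell (-0.75, adjusted p = 0.0187), 33.3% against 18.3%, and between Pcgf1-KO and control none of the 3 was called by limma in either stage, against 0.641% of all genes in ESCs and 1.95% in EBs. *Trp53* itself lay between 329 and 473 TPM in control EBs and between 302 and 555 in Pcgf1-KO EBs. Of 19 p53 target genes, 1 rose (*Bax*) and 3 fell (*Rrm2b*, *Eda2r* and *Ei24*) with control EB formation (21.1% against 24.9% of all genes), and 1 rose and 6 fell between Pcgf1-KO ESCs and EBs (36.8% against 18.3%), with *Perp* (-1.68), *Plk2* (-1.65) and *Btg2* (-1.33) changing most. Between Pcgf1-KO and control, *Perp* was higher in ESCs (34.9 against 8.68 TPM, adjusted p = 0.00745) and *Ei24* in EBs (191 against 120 TPM, adjusted p = 0.0163). Each is 5.26% of the list, against 0.641% of all genes in ESCs and 1.95% in EBs. Point mutant ESCs had 3 of 19 higher, *Pmaip1* (1.31), *Perp* (1.30) and *Btg2* (1.02 on the log2 scale), and point mutant EBs had 4 of 19 higher, *Pmaip1* (1.57), *Perp* (1.49), *Phlda3* (0.94) and *Btg2* (0.86). These shares were 15.8% against 2.54% of all genes in ESCs and 21.1% against 4.53% in EBs.

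*Cdkn1c* lies in an imprinted cluster on chromosome 7. Of 7 neighbours, *Slc22a18*, *Kcnq1* and *Cd81* fell and *Phlda2* rose in control EB formation of the *Pcgf1* line, 57.1% against 24.9% of all genes, while *Cdkn1c* itself rose. In point mutant EBs 2 of 7 rose with *Cdkn1c*, *Slc22a18* (8.06 against 2.67 TPM, adjusted p = 0.0225) and *Phlda2*, another maternally expressed growth inhibitor (205 against 101 TPM, adjusted p = 0.0197), 28.6% against 4.53% of all genes. In point mutant ESCs none of the 7 was called by limma, against 2.54% of all genes.

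Across the 19 *Pcgf1*-line libraries, the genes whose log2 levels were most like those of a member were sought among 13399 genes with a mean of at least 1 TPM. These correlations describe libraries that share a line and the ESC-EB difference. *Cdkn1a* was most like *Dyrk3* (r = 0.976), *Slc5a6* and *Rnd3*, and *Cdkn1c* most like 2810459M11Rik (0.972), *Slc9a7* and *Grhl2*. *Cdkn2a*, which separated Pcgf1-KO EBs from all other groups, had weaker partners in *Mpdu1* (0.901), *Fez1* and *Angptl4*. *Cdkn2b* was most like *Dpysl4* (0.913), *Cdkn2c* most like *Kank4* (0.962), *Cdkn2d* most like *Krt42* (0.971) and *Cdkn1b* most like *Mdc1* (0.942). Among the members themselves, *Cdkn2a* and *Cdkn2b* were correlated at 0.661, *Cdkn1a* and *Cdkn1c* at -0.703, and *Cdkn1c* and *Cdkn2d* at -0.851.

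In the other 4 lines labels and table names disagree, so values are set beside both and no test was made by name. In the Ring1A/B line, the libraries labelled control EB are named as mutant ESCs and those labelled mutant ESC as control EBs. Their *Klf4* levels were 666 to 709 TPM (labelled control EB) and 7.4 to 9.9 (labelled mutant ESC), and *Fgf5* was at 0.54 to 0.79 and 27.47 to 27.98. *Rnf2*, the *Ring1b* gene targeted there, was at 62.9 to 78.2 TPM in libraries named control. In libraries named mutant it was no lower, at 78.1 to 95.1 TPM. By label, 15 of 28 tests of the 7 genes over 4 comparisons were called by limma. Of all genes, 43.2% were called for control EB against control ESC and 56.5% for mutant EB against mutant ESC. The shares were 48.8% for mutant ESC against control ESC and 33.3% for mutant EB against control EB. By name, both stage comparisons set mutant against control, in ESCs and then in EBs. Both mutant comparisons set EB against ESC by name, in controls and then in mutants. *Klf4* and *Fgf5* followed the stages of the names, so the 15 calls are not read as results for the labelled conditions. *Cdkn1a* was at 192 and 202 TPM in libraries labelled control ESC, 206 and 225 in those labelled control EB, 43.4 and 42.1 in those labelled mutant ESC and 66.6 and 67.4 in those labelled mutant EB. *Cdkn1c* was at 7.06 and 7.36 TPM with the label control ESC, 51.3 and 51.3 with control EB, 46.9 and 40.5 with mutant ESC, and 126 and 122 with mutant EB. *Cdkn2a* lay between 27.6 and 55.5 TPM over the 8 libraries. By name, it was at 34.6 and 39.1 TPM in control ESCs and 27.6 and 36.7 in control EBs. In libraries named mutant it was at 43.0 and 55.5 in ESCs and 54.9 and 55.2 in EBs, above every library named control.

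In the Pcgf3/5 line, *Cdkn1a* followed the stage in the names, at 82.5 to 93.2 TPM in the 4 libraries named ESC and 19.01 to 25.7 in the 4 named EB, and *Cdkn1c* did the reverse (4.92 to 5.44 and 43.9 to 62.8). *Klf4* divided the same libraries, 138 to 183 against 6.80 to 12.1 TPM. *Cdkn2a* stayed between 10.2 and 19.8. The Pcgf2/4 line had *Cdkn1a* at 158 to 239 TPM in all 8 libraries, with no low group among those named EB, although their *Klf4* was 8.54 to 11.1 TPM. It was at 158 to 167 TPM in libraries named control and 192 to 239 in those named mutant. *Cdkn2a* was at 20.4 to 25.7 TPM in libraries named control and 31.5 to 45.3 in those named mutant. In the Pcgf6 line *Cdkn1a* was at 124 to 180 TPM in libraries named control and 203 to 226 in those named mutant. *Cdkn2b* was at 4.24 to 7.26 and 12.3 to 18.4 TPM there, and *Cdkn2a* overlapped (32.2 to 38.5 and 37.8 to 53.5). *Cdkn1c* was at 14.2 and 16.8 TPM in libraries named control EB and 68.7 and 80.1 in those named mutant EB. The fibroblast marker *Col1a1* differed between the same libraries, at 1.18 and 1.19 TPM in those named control EB and 36.1 and 92.2 in those named mutant EB, and its part was not tested. *Pcgf6*, the targeted gene there, was at 67.1 to 105 TPM in libraries named control and 34.7 to 46.3 in those named mutant, while both sets hold libraries labelled control and labelled mutant.

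Every labelled group of these 3 lines holds libraries named for different conditions, so the tests by label say nothing about whether the 7 genes changed. Limma called none of 28 in each line, with 3 (Pcgf2/4), 1 (Pcgf3/5) and 4 (Pcgf6) at an unadjusted p below 0.05. Of all genes, 0.0% were called in every comparison of the Pcgf2/4 and Pcgf6 lines, and 0.0601%, 0.0%, 0.0401% and 0.0301% in the Pcgf3/5 line in the order given for Ring1A/B. *Cdkn2d* was at 0.594 to 1.62 TPM in the 16 libraries of the Pcgf2/4 and Pcgf6 lines and 8.22 to 31.5 in the other 43. These 16 tables share a header form, 124 of 12429 genes were at least 3 times lower in them and 1 higher, and the *Cdkn2d* level was therefore not compared between these 16 libraries and the others.

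**Figure D5:**
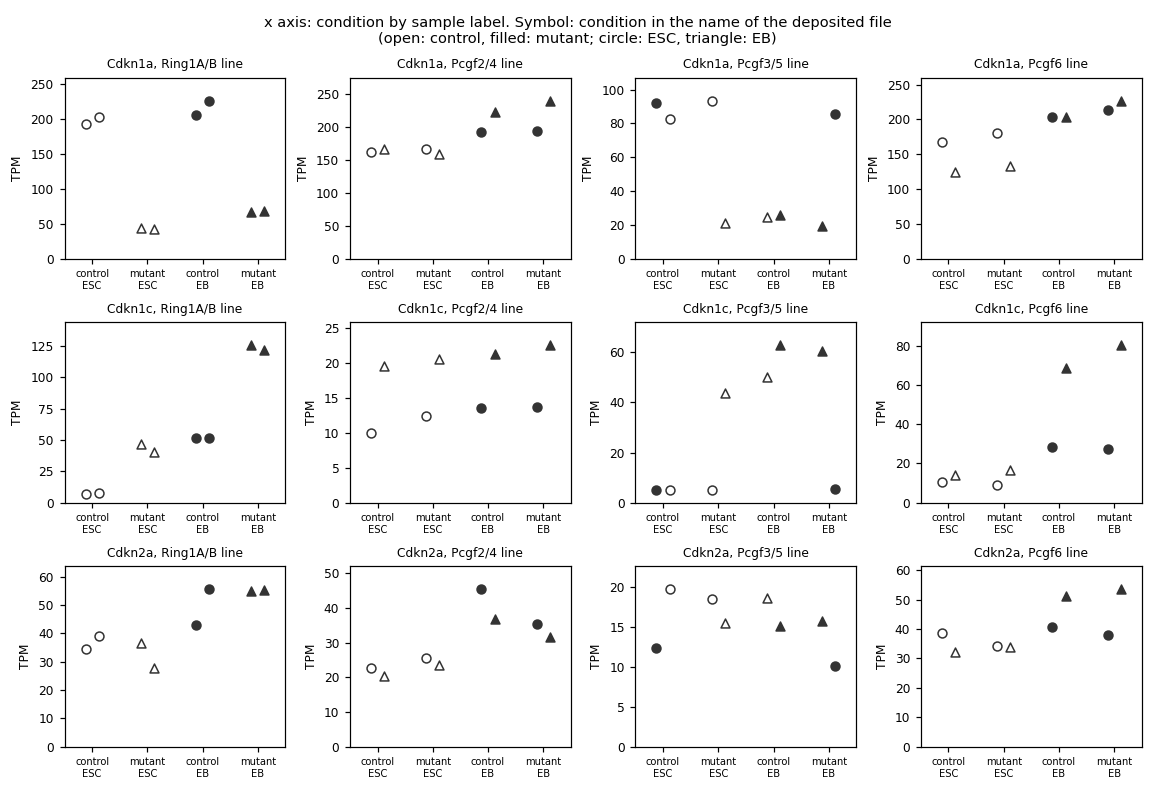
Levels of *Cdkn1a*, *Cdkn1c* and *Cdkn2a* in each library of the 4 lines whose labels and table names disagree (TPM, linear axes from 0), placed along the x axis by label. The symbol gives the condition in the table name (open for control, filled for mutant, circle for ESC and triangle for EB). In the Pcgf3/5 line, *Cdkn1a* at 82.5 to 93.2 TPM belongs to libraries named ESC and 19.01 to 25.7 to libraries named EB.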

How the data were processed

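Per the labels and the study's methods, poly(A) RNA was converted to libraries with the NEBNext Ultra II kit and aligned by the authors to mm9 with STAR 2.5.2b. The authors deposited 1 table of TPM per library. The step to TPM, the strand setting and the read depth are not given in the sources used here, and *Cdkn2d* or antisense reads could not be separated. Groups were taken from the sample titles (1 Pcgf1-KO EB library is replicate 4 by title and 5 by another label). No pair of the 1711 library pairs held identical values.

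Each line was fitted by itself with limma 3.58.1 (R 4.3.3) on log2(TPM + 0.1), with an empirical Bayes trend, over genes above 0 in at least 1 library, two-sided and adjusted by Benjamini-Hochberg over all genes, and was called at an adjusted p below 0.05. A fold change on this scale understates low genes. The script was tested on simulated data. In the *Pcgf1* line the deviations of same-numbered libraries from their group means correlated (r from 0.317 to 0.653 in every pair, 13400 genes), so the number was also fitted as a block. Copies of the transcripts were sought in mm9 with blastn 2.17.0, and promoters and figures were made with Python 3.11.15. All 7 members are named, with at most 3 called genes per list and comparison (by largest change, where 1 group averaged 1 TPM or more) and 3 most similar genes per member. *Dmrta1*, *Phlda2*, *Trp53*, *Bax*, *Cdk2*, *Cdk4*, *Btg2*, *Lum*, *Thy1* and other list members beyond this rule are also named, chosen after their values were seen. The members and lists were chosen with earlier results of these data known. Alternatives were a pseudocount of 1, a filter at a mean of 1 TPM, median-of-ratios scaling, quantile normalization, the block, fits restricted to a pair of groups and each library left out.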

Additional observations from a re-analysis of the deposited data

Results flagged for a closer look

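*Cdkn2d* in Pcgf1-KO ESC replicate 3 of the *Pcgf1* line was at 14.7 TPM, below the other 4 libraries of its group (18.8 to 20.1). The gap took 0.747 of the range of the group, above the critical value of 0.71. Chance gives such a gap in about 1 in 20 groups, and 28 groups were examined.

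The *Cdkn2a* difference between Pcgf1-KO and control was larger in EBs than in ESCs by 1.38 on the log2 scale in the fit with the replicate block (adjusted p = 0.00103). Without the block the difference was 1.26 (adjusted p = 0.596).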

How the results depend on the processing

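Of 1008 recomputed fold changes of the 7 genes in the *Pcgf1* and point mutant lines, 924 kept their direction and side of the threshold, 33 lost a call, 22 gained one and 29 turned direction. Of 1008 counts over the gene lists 845 stayed within 1.5 times. The cause of the changes below was not tested. Depth is unknown, and the labels of 4 lines could not be tested without the libraries whose names differ, since no comparison remains.

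With the replicate block or with mutant EB numbers 4 and 5 exchanged in it (added after seeing the data), the members called in the *Pcgf1* line numbered 1 (mutant ESC), 2 (mutant EB) and 1 (interaction). Median-of-ratios scaling and quantile normalization each gave 2 for mutant EB. Leaving out 1 library gave 3 to 5 members for mutant EB against mutant ESC and 0 to 1 for mutant ESC. Over all genes the block moved the calls from 5138 to 9050, 3770 to 7573, 132 to 1094, 402 to 2143 and 1 to 333 in the order stage in controls, stage in mutants, mutant ESC, mutant EB and interaction.

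In the point mutant line same-numbered libraries also varied together (r 0.258 to 0.381), but each group holds only 2 libraries and the labels name no shared source. The block there gave 3 members for the stage in controls, 1 for the stage in mutants, 2 for mutant ESC and 4 for mutant EB. Over all genes it called 2018, 102, 1326 and 2056 in the same order, against 960, 27, 515 and 918 without it. The calls gained were *Cdkn1a* and *Cdkn1b* for the stage in controls, *Cdkn1c* for the stage in mutants, *Cdkn2a* for mutant ESC (adjusted p = 0.0288), and *Cdkn1a* (0.0186) and *Cdkn2a* (0.0307) for mutant EB. The filter at 1 TPM gave 1 (stage in mutants) and 2 (mutant ESC), both other scalings 1 (stage in mutants) and 1 (mutant EB), and a fit of only the groups compared 0 (mutant ESC) and 1 (mutant EB). Without 1 library the counts were 0 to 1 for mutant ESC and 0 for mutant EB. In the Pcgf3/5 line that fit gave 4 of 28. The block called 17 tests for Ring1A/B and 0 for Pcgf2/4, Pcgf3/5 and Pcgf6. Same-numbered libraries of the Pcgf3/5 line correlated at -0.160 and -0.790 between stages, and crossing the EB numbers (added after seeing the data) also called 0.

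No called value turned direction. Over the libraries left out in turn, the uncalled values that turned in the *Pcgf1* line ranged as follows. *Cdkn1b* lay between -0.20 and 0.10 in the mutant stage comparison and between -0.15 and 0.15 in mutant EB, and *Cdkn1c* between -0.19 and 0.25 in mutant ESC and between -0.029 and 0.40 in mutant EB. The interactions lay between -0.075 and 0.18 for *Cdkn1a* (-0.0098 with the block, -0.0093 with the exchanged block), between -0.012 and 0.36 for *Cdkn1b*, between -0.070 and 0.38 for *Cdkn1c* and between -0.59 and 0.089 for *Cdkn2b*. In the point mutant line *Cdkn2c* lay between -0.12 and 0.77 for the stage in controls and *Cdkn2b* between -0.25 and 1.08 for mutant EB, and the interactions between -0.082 and 0.53 for *Cdkn1a*, between -0.80 and 0.20 for *Cdkn1b*, between -0.59 and 0.27 for *Cdkn2a* and between -0.31 and 0.59 for *Cdkn2c*.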
